A study of Mus musculus with 6 samples.

Results

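The proteasome is the protease complex that degrades proteins tagged with ubiquitin. Its genes were taken as every row of the count table whose symbol begins with Psm, a letter from a to g and a digit, which gave 50 of 24063 rows. Of these, 48 encode subunits, assembly chaperones or regulators of the proteasome. Psme2b is a retrogene copy of Psme2, and Psmc3ip, a meiotic recombination factor, matched by name only. RNA was sequenced from diethylnitrosamine (DEN) induced liver tumors of male C57BL/6 mice, 3 WT (NR2E3+/+) and 3 Nr2e3-/-, with 1 library per mouse (the study's methods give the WT mice as C57BL/6J). All mice had received 25 mg per kg of the carcinogen DEN at 15 days of age, and the tumors belong to the 24-week time point. Nr2e3 encodes an orphan nuclear receptor, and both the knockout and the carcinogen acted on the whole animal, so a change seen in bulk tumor RNA cannot be assigned to the tumor cells themselves.

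The catalytic core, the 20S particle, is a barrel of outer alpha rings and inner beta rings. Of its beta subunits, Psmb6 (beta1, caspase-like), Psmb7 (beta2, trypsin-like) and Psmb5 (beta5, chymotrypsin-like) cut peptide bonds. Interferon-gamma induces Psmb9, Psmb10 and Psmb8, which take the places of these subunits in newly made cores and form the immunoproteasome, known for making peptides for MHC class I. The 19S particle caps the barrel. Its lid removes ubiquitin chains through Psmd14, and its base binds these chains and unfolds the substrate with a ring of ATPases, Psmc1 to Psmc6. The transcription factor Nfe2l1 is known for raising subunit genes when proteasome activity is short, and Nfe2l2 for raising some of them under oxidative stress.

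Total counts ranged from 15376261 to 28690279 per library, the lowest being Nr2e3-/- replicate 1. The targeted gene could not check the labels, since Nr2e3 had 0 counts in all 6 libraries, which allows at most 0.105 to 0.195 CPM (counts scaled to the size of the library), counting error only. The liver origin was visible in Alb, with 8.02% to 13.4% of all counts. Nr2e3-/- replicate 1 stood apart from its group in log2 CPM across the 13572 genes left by a filter on low counts. It correlated with the WT libraries at 0.973 to 0.981, and with Nr2e3-/- replicates 2 and 3 at 0.952 and 0.972. Counts of members at the test thresholds are therefore given with and without it. The genes described below were compared by the two-sided quasi-likelihood test of edgeR. Its p-values were adjusted (Benjamini-Hochberg) across all 13572 genes left by a filter on low counts, 49 of the 50 Psm genes among them. In bulk tissue, fewer cells of a type and less RNA per cell cannot be told apart.

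Proteasome genes lay slightly above their WT level in Nr2e3-/- tumors, and with all 6 libraries no single gene among them passed the adjusted edgeR test. The median log2 fold change of the 49 members was 0.14, a 1.10-fold difference, against 0.01 over all genes tested. Of the 49, 40 (81.6%) had a log2 fold change above 0, where 50.8% of all genes tested did. With upper quartile normalization 35 of 49 were above 0, where 40.6% of all genes were. With TMM it was 42 without Nr2e3-/- replicate 1, against 50.3% of all genes, and 39 without Nr2e3-/- replicate 3, against 52.0%. The edgeR adjusted p-value was under 0.05 for 0 members (0.0663% of all genes were higher at this threshold), and the smallest was 0.124. At an unadjusted p under 0.05, 7 members (14.3%) were higher, close to the 11.8% of all genes, and 0 were lower, where 9.72% of all genes were.

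The groups separated more often than the tests passed. All 3 Nr2e3-/- libraries lay above all 3 WT libraries for 19 members (38.8%), against 13.9% of all genes, and below them for 1 member, Psme2b (2.04%), against 12.9% of all genes. The members had more counts and a smaller spread than most genes: the median within-group SD on the log2 scale was 0.099 for the members and 0.227 over all genes tested, and the median of the mean counts was 1667 and 349. Members share the libraries they were measured in, so the 19 are not independent observations. An exact permutation test of 3 libraries against 3 cannot give a p-value below 0.1 for any single gene.

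Without Nr2e3-/- replicate 1, the members counted as higher grew in number, as did those of all genes. In that comparison 3 members (6.12%), Psme3, Psmd14 and Psmd7, had an adjusted p under 0.05, where 12.2% of all genes were higher at the same threshold. At an unadjusted p under 0.05 there were 14 members (28.6%), against 19.9% of all genes. With all 6 libraries, DESeq2 gave an adjusted p under 0.05 for 2 members (4.08%), Psme3 and Psmd14, against 4.89% of all genes, and limma-voom with quality weights for 4 (8.16%), Psme3, Psmd14, Psmd6 and Psme4, against 9.48%. The members' share was thus close to that of all genes with DESeq2 and limma-voom, and below it without Nr2e3-/- replicate 1. The 3 analyses share libraries and are not independent.

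**Figure D1:**
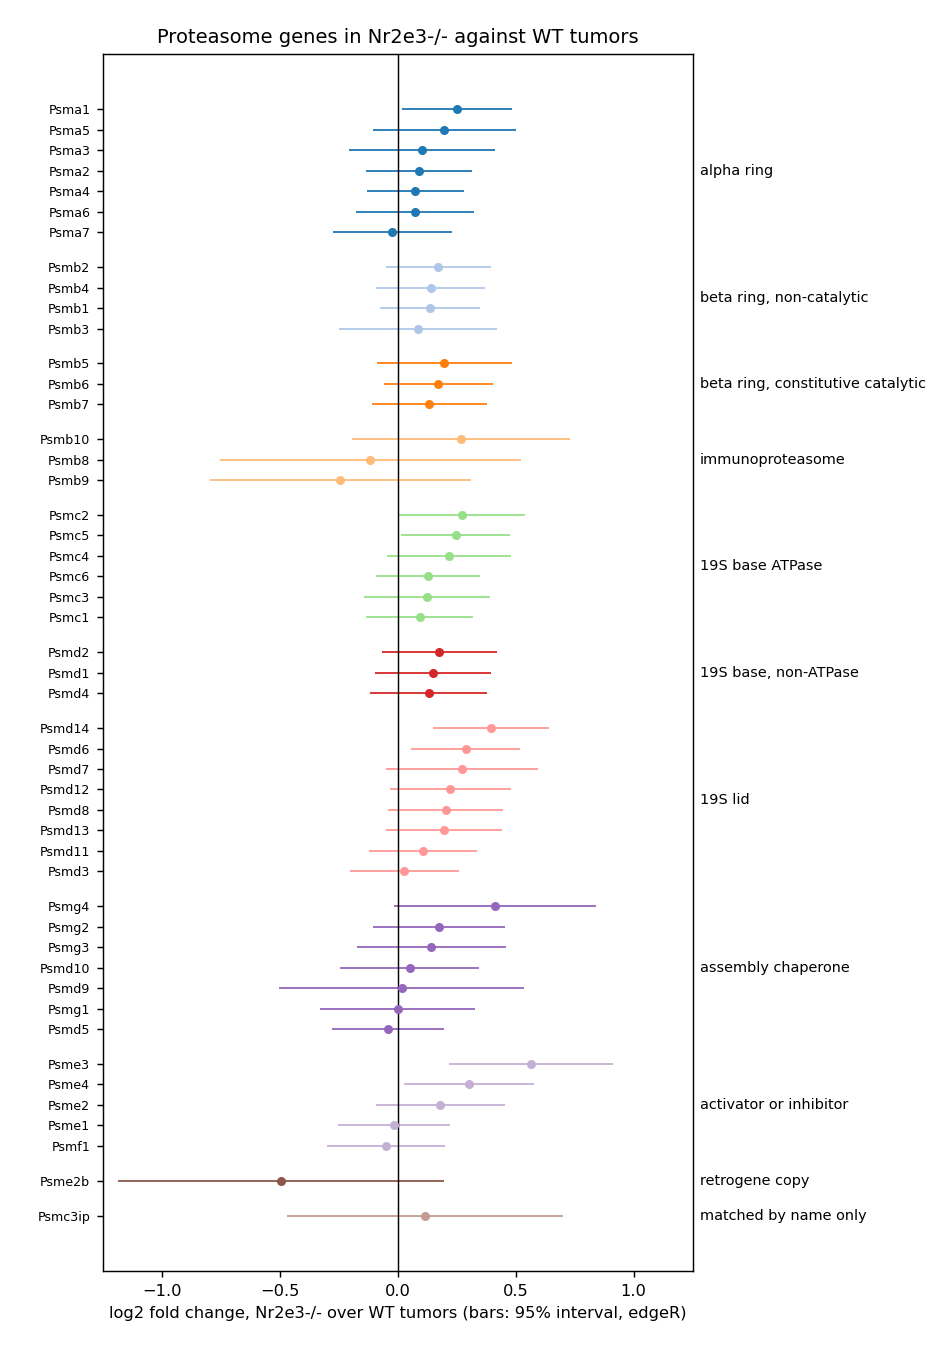
Log2 fold change of Nr2e3-/- over WT tumors for 48 of the 49 members tested, grouped by class, each point a gene and each bar its 95% interval from edgeR. Psma8, whose interval is wider than the axis, was left out. All 17 genes of the 19S particle and 13 of 14 genes of the constitutive core lie right of 0, most with intervals that include 0, and the immunoproteasome genes lie on both sides.

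Promoter sequence is shown for the members with the smallest p-values and for catalytic subunits of both kinds, because members that lie on one side of 0 together raise the question of shared promoter letters. RefSeq promoter windows (GRCm38.p6, 250 bases before to 50 after the start) were at hand for 42 of the 50 members, as 45 windows. The letters searched on both strands were TGACNNNGC (antioxidant response element core, which Nfe2l1 and Nfe2l2 bind), CCAAT (bound by NF-Y), GGGCGG (the GC box bound by Sp1), GAAANNGAAA (interferon-stimulated response element) and TTCNNNGAA (gamma-activated site). Capitals mark any match. The 150 bases before the first annotated base of each gene, by RefSeq or GENCODE whichever starts earlier, are given 5′ to 3′ on the gene's own strand.
Psmd14 (chr2:61711544-61711693, plus strand): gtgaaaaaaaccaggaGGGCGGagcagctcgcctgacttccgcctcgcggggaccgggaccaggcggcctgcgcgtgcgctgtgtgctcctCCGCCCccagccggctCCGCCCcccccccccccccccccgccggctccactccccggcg
Psmd6 (chr14:14120985-14121134, minus strand): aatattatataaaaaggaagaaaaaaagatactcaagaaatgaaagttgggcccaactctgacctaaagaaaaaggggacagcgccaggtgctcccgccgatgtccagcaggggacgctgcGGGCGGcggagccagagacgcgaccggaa
Psme3 (chr11:101316063-101316212, plus strand): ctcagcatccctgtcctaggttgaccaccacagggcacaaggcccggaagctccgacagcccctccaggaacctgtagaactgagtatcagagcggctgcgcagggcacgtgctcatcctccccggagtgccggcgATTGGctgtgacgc
Psmb6 (chr11:70525207-70525356, plus strand): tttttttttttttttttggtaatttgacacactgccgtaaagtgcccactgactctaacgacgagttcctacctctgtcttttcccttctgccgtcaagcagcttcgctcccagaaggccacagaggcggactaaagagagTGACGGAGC
Psmb5 (chr14:54618023-54618172, minus strand): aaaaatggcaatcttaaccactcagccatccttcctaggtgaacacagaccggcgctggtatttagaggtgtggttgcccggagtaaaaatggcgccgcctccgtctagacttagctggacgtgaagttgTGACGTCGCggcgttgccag
Psmb10 (chr8:105938445-105938594, minus strand): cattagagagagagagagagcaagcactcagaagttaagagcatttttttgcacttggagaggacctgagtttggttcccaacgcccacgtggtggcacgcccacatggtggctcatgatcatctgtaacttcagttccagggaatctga

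A GC box was found in 10 of 15 windows of the 19S particle (66.7%) and in 5 of 12 of the constitutive core (41.7%), against 35.7% of all 32851 windows. Psmd14 held 3 of them, beginning 134, 59 and 43 bases before the RefSeq start, and Psmd6 held 1. A CCAAT match stood in 6 of 12 core windows (50%) and in 4 of 15 windows of the 19S particle (26.7%), against 37.4% of all windows, and Psme3 held it 14 bases before its start. The antioxidant core was found in 6 of the 45 windows of members (13.3%), close to the 12.4% of all windows. Psmb5, 47 bases before its start, and Psmb6, at 9 bases, were both among them. The interferon-stimulated element was in 5 of 45 windows (11.1%, against 3.44% of all windows), none of them an immunoproteasome gene, and the gamma-activated site in 3 (6.67%, against 8.30%), with Psmb8 among them at 97 bases. The windows of Psmb8 and Psmb9 are not shown, since their RefSeq starts lie 474 and 434 bases inside the annotated genes. A match of letters shows no binding, and its absence from these windows says nothing about the factor.

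The alpha ring, whose 7 subunits form the gated ends of the barrel, had 6 of 7 genes above 0 (50.8% of all genes were). Its median log2 fold change was 0.09. Psma1, the alpha6 subunit, was measured at 90.0, 82.8 and 83.8 normalized CPM in WT and at 97.1, 99.2 and 109 in Nr2e3-/- tumors. The groups did not overlap, and the log2 fold change was 0.25 ± 0.10 (standard error; unadjusted p = 0.038, adjusted p = 0.208 from edgeR). Psma5, the alpha5 subunit, had 13.0, 13.9 and 14.5 CPM in WT and 13.8, 17.3 and 16.3 in Nr2e3-/- tumors. Here Nr2e3-/- replicate 1 lay inside the WT range, and the log2 fold change of 0.20 had a 95% interval from -0.11 to 0.50. Psma5 shares 55.4% of its 50-base stretches with other annotated transcripts, mostly processed pseudogenes, so its count depends on how shared reads were assigned. Psma7, alpha4, was the only one of the 7 below 0, at -0.02.

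The 4 beta subunits that do not cut, Psmb1, Psmb2, Psmb3 and Psmb4, had log2 fold changes between 0.09 and 0.17 and 0 passed an unadjusted p of 0.05. Psmb2 (beta4) was at 53.4, 51.4 and 53.3 CPM in WT and at 58.2, 56.2 and 63.7 in Nr2e3-/- tumors. The difference was 0.17 ± 0.10 on the log2 scale (standard error; adjusted p = 0.330, edgeR). Psmb1 (beta6) had 112, 116 and 111 CPM against 127, 121 and 124. For both genes every Nr2e3-/- library lay above every WT library, although the intervals of both log2 fold changes reached below 0.

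The constitutive catalytic subunits were all slightly above WT, by 1.13-fold at the median. Psmb6 had 93.3, 85.2 and 89.8 CPM in WT and 100.2, 95.1 and 107 in Nr2e3-/- tumors, without overlap (log2 fold change 0.17, 95% interval -0.06 to 0.40). Psmb7 had 112, 120 and 114 CPM against 127, 116 and 136. Psmb5 had 34.1, 28.8 and 30.5 CPM against 33.0, 34.2 and 39.9. For Psmb7 and Psmb5 the groups overlapped, and the log2 fold changes were 0.13 (95% interval -0.11 to 0.38) and 0.20 (-0.09 to 0.48). Psmb5, the target of the proteasome inhibitor bortezomib, shares 57.1% of its 50-base stretches with other annotated transcripts, among them the processed pseudogene Gm3375. Exons of Psmb7 and Nek6 overlap on opposite strands. None of the 3 subunits passed an unadjusted p of 0.05.

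The immunoproteasome subunits lay on both sides of WT, and the groups overlapped for each of them. Psmb8 was measured at 29.5, 46.2 and 25.6 CPM in WT and at 24.6, 40.8 and 27.8 in Nr2e3-/- tumors. Psmb10 was at 22.9, 31.7 and 26.4 CPM in WT and at 24.6, 38.9 and 33.7 in Nr2e3-/- tumors. In both genes replicate 2 was the highest library of each group, and the groups overlapped. Psmb9 was at 14.1, 16.1 and 8.91 CPM in WT and at 11.9, 11.8 and 9.25 in Nr2e3-/- tumors, again overlapping, with the lowest value of each group in replicate 3.

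The log2 fold change was -0.12 for Psmb8 (95% interval -0.76 to 0.52), 0.27 for Psmb10 (-0.20 to 0.73) and -0.24 for Psmb9 (-0.80 to 0.31). Their median was -0.12, a ratio of 0.922, against 0.13 for the 14 constitutive core genes and 0.20 for the 17 genes of the 19S particle. This median is the value of Psmb8, which was 0.18 without WT replicate 2 and 0.03 without Nr2e3-/- replicate 1, so its sign rested on single libraries. The median within-group SD on the log2 scale was 0.347 for the 3 immunoproteasome genes and 0.083 for the constitutive core. The median half-width of the 95% interval was 0.55 on the log2 scale for the former and 0.24 for the latter, so these intervals do not show that immunoproteasome levels were alike in the genotypes.

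**Figure D2:**
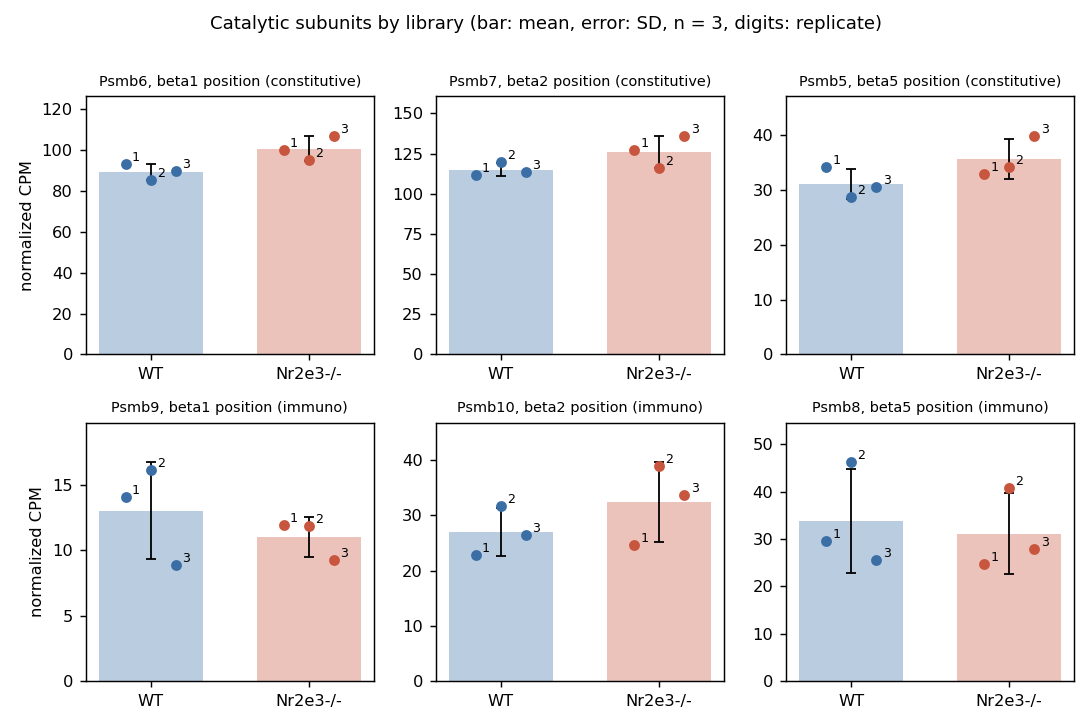
Normalized CPM of each catalytic subunit by library, with the constitutive subunits in the upper row and the immunoproteasome subunit of the same position below. Bars are means, error bars SD (n = 3) and digits replicate numbers. Psmb6 separates the genotypes (at most 93.3 CPM in WT, at least 95.1 in Nr2e3-/-), while Psmb8 and Psmb10 peak in replicate 2 of both.

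Divided by exon length, the immunoproteasome transcripts were a minority of each catalytic pair. Psmb9 made up 8.17%, 10.1% and 5.53% of Psmb9 plus Psmb6 in WT and 6.56%, 6.85% and 4.85% in Nr2e3-/- tumors. Psmb10 made up 15.4%, 18.99% and 17.1% of Psmb10 plus Psmb7 in WT and 14.7%, 22.9% and 18.0% in Nr2e3-/- tumors. Psmb8 made up 32.4%, 47.0% and 31.7% of Psmb8 plus Psmb5 in WT and 29.2%, 39.7% and 27.8% in Nr2e3-/- tumors. The groups overlapped for each pair. The difference of the log2 ratio of immuno to constitutive subunit was -0.38 ± 0.32 (standard error, n = 3 per group) at beta1, 0.12 ± 0.25 at beta2 and -0.30 ± 0.39 at beta5. The Psmb8 share rests on the Psmb5 count, whose reads can be shared with pseudogenes, and exons of Psmb9 overlap those of Tap1, and exons of Psmb8 those of Gm20496, on opposite strands, where counting without strand cannot tell them apart.

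Summed over genes, the immunoproteasome, the antigen presentation list and the immune markers were each highest in replicate 2 of both groups. The 3 subunits summed to 66.5, 94.0 and 60.9 CPM in WT and to 61.2, 91.5 and 70.8 in Nr2e3-/- tumors, although Psmb9 alone was about level in Nr2e3-/- replicates 1 and 2. The 10 genes of interferon response and peptide loading, a sum led by B2m, were highest at 3651 CPM among 3024 to 3651 in WT and 3723 among 2950 to 3723 in Nr2e3-/- tumors. The 11 immune cell markers summed to 191, 261 and 220 CPM in WT and to 161, 338 and 202 in Nr2e3-/- tumors. This sum was led by Clec4f and Cd74, and Clec4f alone was highest in WT replicate 3 (110.7 CPM, against 106.6 in WT replicate 2). Cd8a, a marker of cytotoxic T cells, reached 2.504 CPM in WT replicate 2 and 1.56 in Nr2e3-/- replicate 2 against at most 0.520 elsewhere. The part of these cells in the immunoproteasome values was not tested. Between genotypes, the median log2 fold change of the interferon and peptide loading genes was 0.01. At an unadjusted p under 0.05, 1 of these 10 was higher (11.8% of all genes were), Irf1 at 0.41. Tap1, which carries peptides into the endoplasmic reticulum and shares its promoter region with Psmb9, had a log2 fold change of 0.28 (95% interval -0.28 to 0.83) and B2m, the light chain of MHC class I, 0.08 (-0.26 to 0.41).

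**Figure D3:**
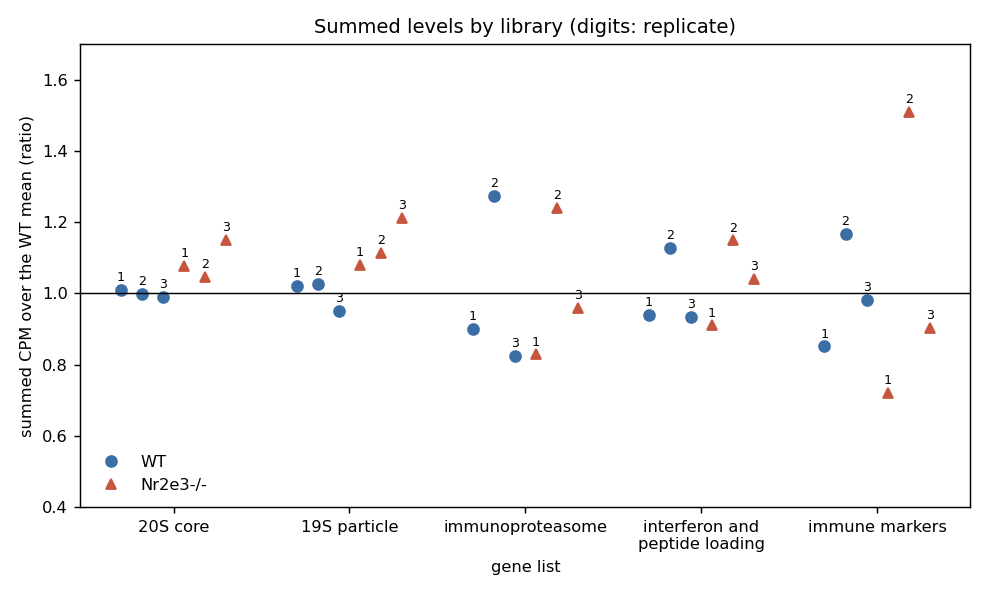
Summed CPM of 5 gene lists in each library, divided by the mean of the WT libraries (circles WT, triangles Nr2e3-/-, digits replicate numbers). For the 20S core and the 19S particle every Nr2e3-/- library lies above every WT library, while the immunoproteasome and the interferon and peptide loading genes are highest in replicate 2 of both genotypes.

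In the 19S particle 17 of 17 log2 fold changes were above 0 (50.8% of all genes tested were), from 0.03 to 0.39. Among the 6 base ATPases the median was 0.17 and 2 were higher at an unadjusted p under 0.05, where 11.8% of all genes tested were. Psmc5 (Rpt6) had 69.8, 64.7 and 66.1 CPM in WT and 76.4, 76.0 and 85.4 in Nr2e3-/- tumors (log2 fold change 0.25 ± 0.10, standard error; unadjusted p = 0.040, adjusted p = 0.212 from edgeR). Psmc2 (Rpt1) had 96.5, 98.5 and 87.3 CPM against 105.0, 109 and 127 (log2 fold change 0.27 ± 0.11; unadjusted p = 0.049, adjusted p = 0.231 from edgeR). In both genes the groups did not overlap and Nr2e3-/- replicate 3 was the highest library.

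The base scaffolds Psmd1 and Psmd2 and the ubiquitin receptor Psmd4 had log2 fold changes between 0.13 and 0.18, and 0 of the 3 passed. Psmd2 (Rpn1) had 159, 167 and 150.1 CPM in WT and 183, 167 and 188 in Nr2e3-/- tumors. Psmd1 (Rpn2) had 155, 167 and 143 CPM against 166, 171 and 179. Both genes overlapped between groups.

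The lid held the largest differences of the 19S particle. Psmd14 (Rpn11), the metalloprotease that cleaves ubiquitin chains off the substrate, lies on chromosome 2 of GRCm38 (61711694 to 61800376). It had 56.6, 58.6 and 48.9 CPM in WT and 70.7, 71.9 and 73.1 in Nr2e3-/- tumors. The 3 Nr2e3-/- libraries lay close together and well above WT, and the log2 fold change was 0.39 ± 0.10 (standard error; unadjusted p = 0.0065, adjusted p = 0.126 from edgeR). Its adjusted p was 0.024 with DESeq2, 0.038 with limma-voom and 0.039 with edgeR without Nr2e3-/- replicate 1.

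Psmd6 (Rpn7), a structural lid subunit on chromosome 14 (14112174 to 14120984), had 68.9, 66.8 and 64.4 CPM in WT and 79.4, 76.7 and 88.0 in Nr2e3-/- tumors. The groups did not overlap and the log2 fold change was 0.29 ± 0.10 (standard error; unadjusted p = 0.022, adjusted p = 0.173 from edgeR). Psmd7 (Rpn8), the partner of Psmd14 in the lid, had 70.8, 70.9 and 66.4 CPM against 68.0, 90.4 and 92.6. Its Nr2e3-/- replicate 1 lay inside the WT range, and its adjusted p was 0.291 with all libraries and 0.023 without that one. The other lid genes, Psmd3, Psmd8, Psmd11, Psmd12 and Psmd13, had log2 fold changes from 0.03 to 0.22 and an unadjusted p above 0.05.

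Summed over genes, the constitutive core had 1008, 998 and 989 CPM in WT and 1075, 1045 and 1147 in Nr2e3-/- tumors, and the 19S particle 1597, 1608 and 1490 against 1690, 1743 and 1896. Neither sum overlapped between the groups. The difference was uneven within the Nr2e3-/- group: replicate 3 was the highest library for 24 of the 31 core and 19S genes. The median distance of these genes from their mean log2 CPM in WT was 0.11, 0.11 and 0.25 in Nr2e3-/- replicates 1, 2 and 3. In the WT libraries it was 0.03, 0.01 and -0.04. Without Nr2e3-/- replicate 3, the median log2 fold change of all members was 0.10.

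**Figure D4:**
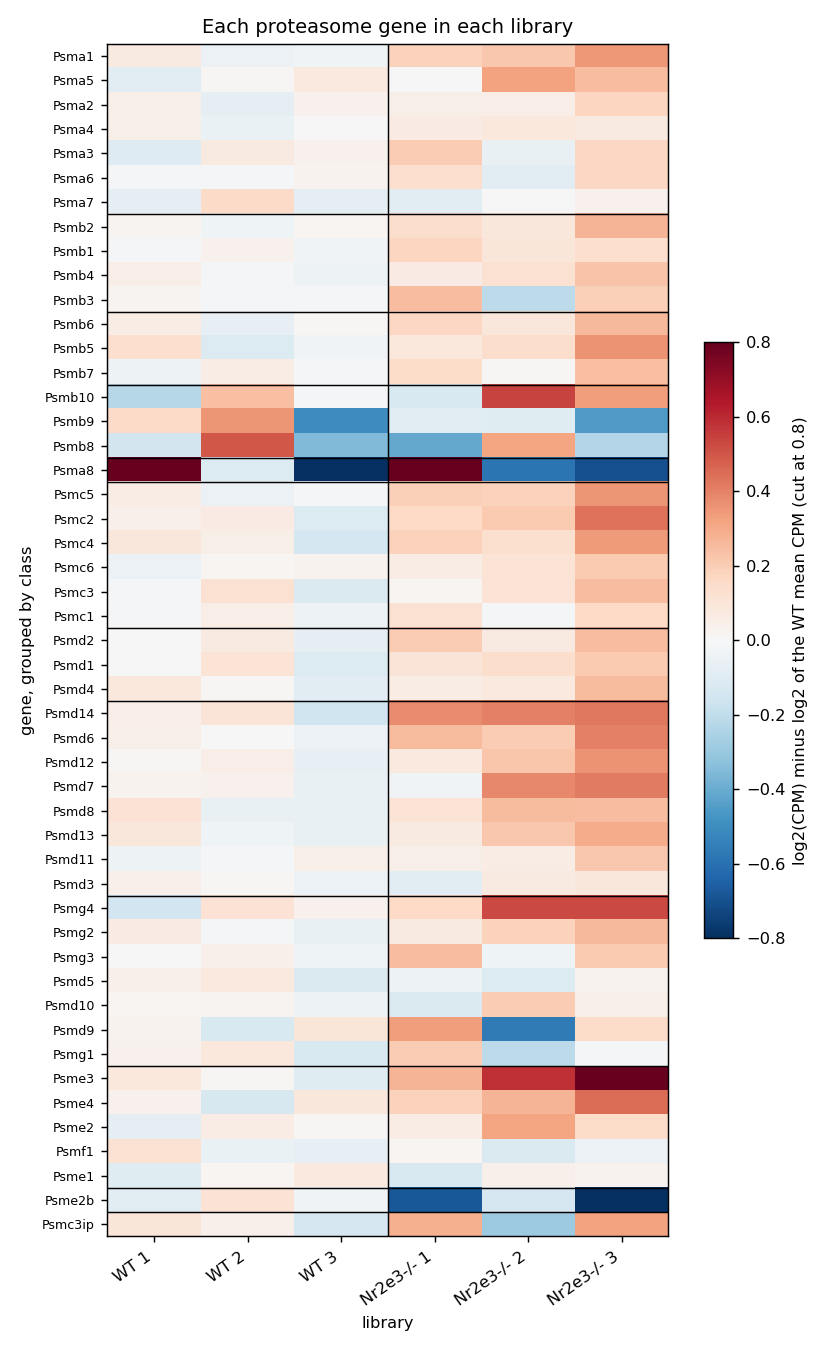
Log2 CPM of each of the 49 members in each library minus the mean of its log2 CPM over the WT libraries. The label of the colour bar names the log2 of the WT mean CPM, but the mean of the log2 values was subtracted. Values beyond 0.8 are drawn at the limit of the scale, with lines between classes. The 3 right columns are mostly red for core and 19S genes, most strongly in Nr2e3-/- replicate 3, and the rows of the immunoproteasome genes change colour within both groups.

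Among activators, which open the core without the 19S particle, the nuclear Psme3 and Psme4 had an unadjusted p under 0.05. The interferon-induced pair did not, and 0 of these 4 passed the adjusted edgeR test. At the unadjusted threshold 11.8% of all genes tested were higher. Psme3 (PA28-gamma), which serves degradation without ubiquitin in the nucleus, lies on chromosome 11 (101316213 to 101323537). It had 67.8, 64.5 and 59.8 CPM in WT and 77.2, 95.7 and 111 in Nr2e3-/- tumors, the largest log2 fold change among the members at 0.57 ± 0.15 (standard error; unadjusted p = 0.0062, adjusted p = 0.124 from edgeR). The groups did not overlap, with Nr2e3-/- replicate 1 nearest to WT. Its adjusted p was 0.022 with DESeq2, 0.019 with limma-voom and 0.0097 with edgeR without that replicate.

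Psme4 (PA200), the nuclear activator that binds acetylated histones, had 172, 154 and 179 CPM in WT and 191, 203 and 229 in Nr2e3-/- tumors, without overlap. The log2 difference was 0.30 ± 0.12 (standard error; unadjusted p = 0.037, adjusted p = 0.205 from edgeR), and its adjusted p was under 0.05 only with limma-voom, at 0.048. Psme1 and Psme2, the subunits of the interferon-induced PA28 ring, had log2 fold changes of -0.02 (95% interval -0.26 to 0.22) and 0.18 (-0.09 to 0.45), and Psmf1, which inhibits the core, -0.05 (-0.30 to 0.20). Psme2 had 16.6, 18.1 and 17.5 CPM in WT and 18.1, 21.6 and 19.3 in Nr2e3-/- tumors, where the lowest Nr2e3-/- library lay just above the highest WT library. The retrogene copy Psme2b had 0.998, 1.15 and 1.04 CPM in WT and 0.662, 0.965 and 0.595 in Nr2e3-/- tumors. It shares 69.3% of its 50-base stretches with other transcripts, mainly those of Psme2, and its log2 fold change of -0.49 had a 95% interval from -1.19 to 0.20.

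The assembly chaperones put the rings and the base together and leave the finished particle. They were above 0 in 5 of 7 cases (50.8% of all genes were), with a median log2 fold change of 0.05. Psmg4, a chaperone of the alpha ring, had 3.69, 4.43 and 4.20 CPM in WT and 4.57, 5.90 and 5.89 in Nr2e3-/- tumors. The groups did not overlap and the log2 fold change was 0.41 ± 0.18 (standard error; unadjusted p = 0.057, adjusted p = 0.244 from edgeR). Psmg2 had 11.5, 10.9 and 10.5 CPM against 11.5, 12.5 and 13.1. Its groups did not overlap either, and its log2 fold change was 0.17. Psmg3, Psmd10, Psmd9, Psmg1 and Psmd5 lay between -0.04 and 0.14, with overlapping groups. Psmd9, a chaperone of the base, varied most, at 44.5, 23.9 and 39.2 CPM in the Nr2e3-/- libraries.

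Tissue-restricted core subunits had low counts. Psmb11, the thymus subunit beta5t, had 1 count in WT replicate 1 and 0 in the other libraries and was not tested. Psma8, the testis form of alpha4, had 4.34, 0.981 and 0.277 CPM in WT and 2.78, 0.705 and 0.649 in Nr2e3-/- tumors, highest in replicate 1 of both. Its log2 fold change of -0.48 (95% interval -2.78 to 1.83) became 1.08 without WT replicate 1. Psmc3ip, which is no proteasome subunit, had 2.04, 1.96 and 1.73 CPM against 2.32, 1.56 and 2.38.

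Levels of different genes were compared as CPM per kb of annotated exon. In WT tumors the median was 57.2 CPM per kb for the constitutive core, 48.1 for the 19S particle, 20.6 for the immunoproteasome and 9.31 for the assembly chaperones. In Nr2e3-/- tumors these medians were 62.5, 55.3, 19.1 and 9.83. Subunits that stand in equal number in a particle did not have equal CPM per kb. The core ran from 3.98 (Psma3) to 118 (Psmb4) in WT, while the 19S particle kept within 20.1 (Psmd11) and 62.4 (Psmc1). For Psma3 the annotated exons span 2846 bases and 22.0% of its 50-base stretches occur in other transcripts, chiefly processed pseudogenes, so its low level depends on annotation and read assignment.

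**Figure D5:**
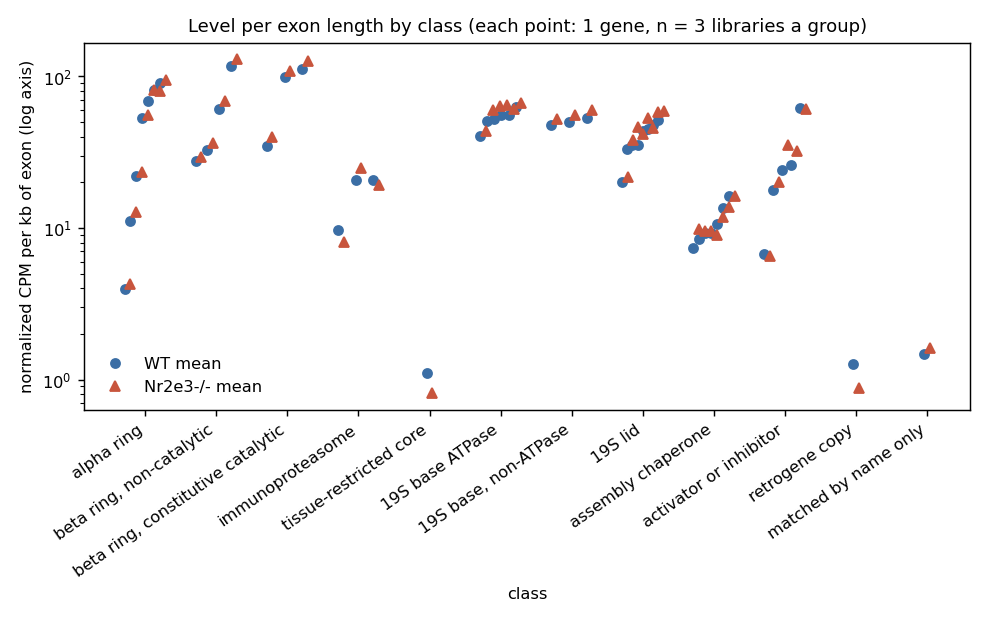
Normalized CPM per kb of annotated exon on a log axis, each point a gene's mean over 3 libraries (circles WT, triangles Nr2e3-/-), by class. Psmb11, with a mean of 0 in Nr2e3-/-, is not drawn. Core and 19S genes span 3.98 to 130, immunoproteasome genes between 8.14 and 24.7 and chaperones between 7.40 and 16.2.

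Proteasome genes that the symbol rule does not reach were also mostly above their WT level. Pomp, the maturation factor of the core, had 89.2, 98.5 and 86.1 CPM in WT and 111, 119 and 123 in Nr2e3-/- tumors, without overlap (log2 fold change 0.37, unadjusted p = 0.0088, adjusted p = 0.132 from edgeR). Adrm1, the ubiquitin receptor Rpn13, had a log2 fold change of 0.26 (95% interval -0.22 to 0.74) and Shfm1, the older symbol of the lid subunit Sem1, 0.19 (-0.02 to 0.40). Of 14 factors that bind the proteasome or deliver substrates, 11 were above 0, where 50.8% of all genes tested were. At an unadjusted p under 0.05, 1 of them was higher (11.8% of all genes were), the deubiquitinase Usp14 at 0.29. Ubb, which encodes ubiquitin in tandem copies, had 54.2, 49.2 and 47.1 CPM in WT and 56.0, 76.8 and 72.6 in Nr2e3-/- tumors, without overlap (log2 fold change 0.45, unadjusted p = 0.015, adjusted p = 0.152 from edgeR).

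Genes of factors known to drive subunit genes lay on both sides of WT. Nfe2l1 had 116, 127 and 129 CPM in WT and 105, 117 and 118 in Nr2e3-/- tumors (log2 fold change -0.13, 95% interval -0.37 to 0.11). Nfe2l2 had 102, 121 and 104 CPM against 78.1, 94.6 and 63.1, without overlap (log2 fold change -0.47, unadjusted p = 0.023, adjusted p = 0.174 from edgeR). Of the 8 genes of this list, 3 were higher at an unadjusted p under 0.05, Sp1 at 0.33, Nfya at 0.41 and Nfyb at 0.84. Nfe2l2 was the 1 lower. Of all genes tested, 11.8% were higher and 9.72% lower at this threshold. Sp1 binds the GC box. Nfya, Nfyb and Nfyc are subunits of NF-Y, which binds CCAAT, and Nfyc was at 0.09 (95% interval -0.26 to 0.43). A GC box stood in 53.3% of the 45 promoter windows of members, against 35.7% of all windows. CCAAT stood in 33.3%, against 37.4% of all windows. Nfyb was at 33.6 CPM in Nr2e3-/- replicate 1, inside the WT range, and at 74.4 and 76.4 in replicates 2 and 3. Whether these transcripts have a part in the levels of subunit genes was not tested.

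Other cell types in the tumors were checked by markers. The 6 hepatocyte markers, a sum led by Alb, totalled between 126600 and 158100 CPM in WT and between 113100 and 131300 in Nr2e3-/- tumors. Of the 6, 3 were above 0 and 3 below, Alb at -0.27, Ttr at -0.07 and Apoa1 at -0.02. At an unadjusted p under 0.05, 2 of 6 were higher (11.8% of all genes were), Serpina1c at 0.39 and Hnf4a at 0.50. The 6 stromal and endothelial markers summed to 402 to 411 CPM in WT and 266 to 394 in Nr2e3-/- tumors. These sums did not overlap and were lowest in Nr2e3-/- replicate 3. Kdr, the endothelial VEGF receptor, was at -0.61 (unadjusted p = 0.0056, adjusted p = 0.123 from edgeR). The endothelial markers Pecam1 and Stab2 were at 0.06 and -0.18, both with an unadjusted edgeR p above 0.05. The 3 bile duct markers were at 7.87 to 10.6 CPM against 7.28 to 10.8. Among the immune markers, Itgam (1.21) and S100a8 (2.65) were higher and Cd79a (-1.36) lower at an unadjusted p under 0.05, all at low levels. No marker measured in the 4 lists was at 0 in any library, and the part of the cell type makeup in the differences of core and 19S genes was not tested.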

How the data were processed

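RNA-seq libraries of 6 liver tumors were assigned to WT or Nr2e3-/- by the labelled genotype. The authors prepared TruSeq libraries, aligned single-end reads to mm10 (GRCm38) with TopHat and counted them with featureCounts, and the deposited values used here are raw counts per gene. The annotation and strand setting of the counting are not given in the sources used here, so reads of overlapping or near-identical genes may be split between them. The authors' table of normalized counts, and their own comparison of fold changes and p-values, were not used. Nothing says more of the samples than 1 library per mouse, and p-values measure the spread between these 6 mice.

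Counts were filtered with filterByExpr (minimum count 10, minimum total 15), normalized by TMM and tested with edgeR 4.0.16 in R 4.3.3 (quasi-likelihood, two-sided, Benjamini-Hochberg over 13572 genes). CPM values are scaled by TMM. Alternatives were DESeq2 1.42.0, limma-voom (limma 3.58.1) with quality weights, RLE or upper quartile scaling, other filters, the replicate number as a block, each library left out, and the threshold of 0.0005 in the study's methods. The edgeR, DESeq2 and limma steps were tested on simulated data with log2 changes larger than that of any member. Differences as small as those of the members were not tried there. Positions, exon lengths and shared 50-base stretches come from GENCODE M21, promoters from RefSeq (GRCm38.p6). Python 3.11.15 served for tables (pandas 2.3.3) and plots (matplotlib 3.10.9).

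The members, classes and lists were chosen with earlier results of these data known and written by hand. The rule for named genes gives values in every library for the 6 catalytic subunits and for the 2 members of each class with the smallest p-value, log2 fold changes for other members with an unadjusted p under 0.05, and from lists outside the rule those with such a p together with Nfe2l1, Nfe2l2, Pomp, Adrm1, Tap1 and B2m. Psmd7, Psmd9 and Cd8a were described outside this rule, after their values were seen. The values of some genes that entered the lists above are not reported here.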

Additional observations from a re-analysis of the deposited data

How the results depend on the processing

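The number of members higher at an unadjusted p under 0.05, 7 with all libraries, was 2 with upper quartile normalization (8.12% of all genes were higher, against 11.8% with TMM), 16 with limma-voom (18.8%), 4 without a filter beyond 1 count (9.16%), and 0 at the study's threshold of 0.0005. At an adjusted p under 0.05 it was 2 with DESeq2 (4.89% of all genes) and 4 with limma-voom (9.48%) in place of 0. Upper quartile normalization also lowered the members' median log2 fold change from 0.14 to 0.051, and that of all genes from 0.01 to -0.08, so the distance between them was 0.13 under both scalings. The cause of the other shifts was not tested. Leaving out a library gave 0 to 3 members higher at the adjusted threshold, where 0% to 12.2% of all genes were. The 3 members and the 12.2% both came without Nr2e3-/- replicate 1. At the unadjusted threshold there were 2 to 14 members, where 6.67% to 19.9% of all genes were higher. This count was highest without Nr2e3-/- replicate 1 and was 2 without any single WT library or Nr2e3-/- replicate 3. Between 0 and 1 members were lower at this threshold (5.47% to 17.8% of all genes were), Psmb9 without WT replicate 3 and Psme2b without Nr2e3-/- replicate 2. The members' median stayed between 0.10 and 0.17 in these fits, and that of the immunoproteasome genes ran from -0.30 to 0.18. Psmb8 changed sign without WT replicate 2 (0.18) and without Nr2e3-/- replicate 1 (0.03), its range over the libraries left out being -0.36 to 0.18. Psma8 changed sign without WT replicate 1 (1.08), within a range of -1.43 to 1.08. Over 23 of the named members and 298 alternative values, 287 kept their direction and side of the adjusted threshold, 8 newly passed it and 3 were these reversals. Psmd7, whose adjusted edgeR p was 0.023 without Nr2e3-/- replicate 1, is not among the 23. Psme3 and Psmd14 had an unadjusted p under 0.05 in every alternative run.

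Replicate numbers are shared between the groups. The deviations of same-numbered libraries from their group means correlated at -0.077, 0.221 and 0.023, and those of differently numbered libraries at -0.265 to 0.225. With 3 libraries per group these values cannot decide whether the numbers pair the mice. With the replicate number as a block, 2 members were higher at an unadjusted p under 0.05 (8.97% of all genes were) and 0 at the adjusted one, and the median was 0.14. The median difference, 0.14 on the log2 scale, was smaller than the median half-width of the members' 95% intervals, 0.25, so most single members could not be told from WT with 3 libraries per group. Psmb11, with 1 count in all, could not be compared at this depth.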
